A study of Homo sapiens with 24 samples.

Results

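RUNX1, RUNX2 and RUNX3 are the DNA-binding subunits of the core binding factors, and CBFB is the subunit that all of them share. They were followed as the 4 genes whose symbol is assigned to a transcript cluster of the array, the set of probes placed on a gene locus. Each had exactly 1 cluster among the 67528 of the table, and the cluster of RUNX1 is also assigned to LOC100506403, an RNA gene of the same locus. RNA came from H9 cells, an established human embryonic stem cell (hESC) line, and was measured on 24 arrays, 3 in each of 8 groups. The shNS cells carried a lentivirus with a non-silencing shRNA and the shRUNX1 cells a lentivirus with an shRNA against RUNX1. Both were selected with puromycin, and each arm rests on a single shRNA clone. The cells were undifferentiated (0 hr) or had been kept for 8, 24 or 72 hr in medium with fetal bovine serum, which the study used to drive differentiation towards mesendoderm. The study describes the arrays of a group as coming from independent experiments, which the labels do not state, and p-values measure the spread between them.

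A RUNX protein binds DNA through its Runt domain, and CBFB, which does not touch DNA itself, binds that domain, raises its affinity for DNA and protects the protein from degradation. RUNX1 is known for its requirement in the emergence of blood stem cells, RUNX2 for bone formation, and RUNX3 for the development of sensory neurons and T cells. Every RUNX gene has a distal and a proximal promoter, whose transcripts encode different N-termini, while the array gives a single value per gene.

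The promoter windows are shown because RUNX genes can carry binding sites for their own products. RefSeq windows of 300 bases on GRCh38.p14, which end 50 bases after a transcript start, were at hand for RUNX1 (1 window), RUNX2 (2) and RUNX3 (2). Each is printed from 250 bases before to 30 bases after the start. Capitals mark the RUNX core TGTGGT or its complement ACCACA, or the AP-1 site TGANTCA, searched on both strands with no overlap between the 2 motifs. The windows lie at chr21:34888670-34888949 (minus strand) for RUNX1, chr6:45328080-45328359 (plus strand) for RUNX2 distal and chr1:24964981-24965260 (minus strand) for RUNX3 distal.
RUNX1: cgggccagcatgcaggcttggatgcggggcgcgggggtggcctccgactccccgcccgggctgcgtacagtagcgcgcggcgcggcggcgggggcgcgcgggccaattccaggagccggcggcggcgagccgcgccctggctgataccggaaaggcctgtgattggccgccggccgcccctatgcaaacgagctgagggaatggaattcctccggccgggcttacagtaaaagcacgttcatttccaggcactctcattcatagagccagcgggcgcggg
RUNX2 distal: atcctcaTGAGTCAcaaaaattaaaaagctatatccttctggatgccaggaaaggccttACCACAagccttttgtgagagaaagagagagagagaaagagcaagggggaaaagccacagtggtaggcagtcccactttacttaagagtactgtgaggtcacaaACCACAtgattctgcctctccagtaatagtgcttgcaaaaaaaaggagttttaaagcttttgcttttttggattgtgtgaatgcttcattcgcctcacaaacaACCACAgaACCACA
RUNX3 distal: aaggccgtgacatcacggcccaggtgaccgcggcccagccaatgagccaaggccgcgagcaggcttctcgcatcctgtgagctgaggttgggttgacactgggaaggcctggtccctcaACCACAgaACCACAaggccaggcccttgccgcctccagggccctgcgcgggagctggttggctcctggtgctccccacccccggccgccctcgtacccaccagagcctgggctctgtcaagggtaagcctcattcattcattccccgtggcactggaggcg
The RUNX1 window and the proximal windows of RUNX2 and RUNX3 held neither motif, which says only that these letters are not in them. On the minus strand the RUNX1 gene runs from 35049302 down to 34787801, so its window lies inside the gene. It is not at the distal promoter, for which no RUNX1 window was at hand. The distal window of RUNX2 held 4 RUNX cores and an AP-1 site, and the distal window of RUNX3 held 2 cores. A RUNX core was present in 13.1% of all 35116 promoter windows of this length, and an AP-1 site in 7.71%. In RUNX2 and in RUNX3 a pair of cores stood in the same arrangement, AACCACANAACCACA, at bases 16 to 30 after the start of RUNX2 and at bases -132 to -118 of RUNX3. These letters were chosen after the windows had been read. Of the 35116 windows they were found in 2 (0.0057%), which are those of RUNX2 and RUNX3. Whether the distal promoter of RUNX1 holds them was not tested.

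The array values are normalized log2 signals, and a difference of 1 between arrays is a doubling of the signal of that cluster. Bright and dim are used relative to the median of all values of the table, 5.48, and levels of 2 clusters were not read as relative abundance, since their probes differ. Array medians lay between 5.423 and 5.579, and arrays of a group correlated at a Pearson r of 0.983 to 0.994. Against the other arrays of its group, shRUNX1 replicate 1 at 24 hr deviated more than 2-fold in 1322 clusters and shRUNX1 replicate 2 at 72 hr in 1246, while the other 22 arrays did so in 165 to 942. Of the markers of undifferentiated hESCs, 10 of 10 were bright in shNS cells at 0 hr, from 11.6 for NANOG to 14.43 for DPPA4. All 10 stayed bright in every group, the lowest group mean being 10.7 for NANOG in shNS cells at 8 hr. By the test used below, 5 of them fell and 1 rose from 0 to 24 hr in shNS cells, beside 8.11% and 4.48% of all clusters. Of 9 markers of blood and endothelium, 7 stayed under that median in every group, among them PTPRC (group means of 4.5 to 4.69) and SPI1 (4.61 to 4.82), while CDH5 lay at 6.25 to 6.9 and KDR at 7.9 to 11.99. Of 4 bone markers, SP7 (5.18 to 5.44) and DMP1 (4.62 to 4.82) stayed under it, IBSP lay around it (5.37 to 5.63), and ALPL was bright (9.58 to 10.3). Of 8 mesendoderm markers GATA6 alone rose from 0 to 24 hr in shNS cells by the test used below, as did 4.48% of all clusters. It went from 5.69 to 7.74, while TBXT, the defining gene of the primitive streak, stayed between 5.22 and 5.48. MESP1, GSC, GATA4 and SOX17 stayed under that median in every group, and EOMES lay at 6.71 to 7.25. MIXL1 went from 5.88 to 5.65 in shNS cells and from 5.81 to 6.65 in shRUNX1 cells, without passing in either arm. The study reports T (TBXT), MIXL1 and MESP1 as upregulated in its mesendodermal differentiation. An array signal near or under the median, as for TBXT and MESP1, says little on whether a gene was transcribed.

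RUNX1, the gene the shRNA targets, was first examined in every array. In undifferentiated shNS cells its log2 signals were 5.97, 5.90 and 5.89 in replicates 1, 2 and 3, and in shRUNX1 cells 5.85, 5.99 and 5.81. The groups overlapped, and the difference was -0.03 (SE 0.14, 95% confidence interval -0.32 to 0.25). At 8 hr the shNS arrays read 6.46, 6.65 and 6.28 and the shRUNX1 arrays 6.25, 6.41 and 6.22, again overlapping. At 24 hr they read 6.62, 6.55 and 6.73 against 6.09, 6.47 and 6.24, and all 3 shRUNX1 arrays lay below all 3 shNS arrays. At 72 hr the shNS arrays read 6.58, 6.53 and 6.14 and the shRUNX1 arrays 5.95, 6.45 and 5.99, so that shNS replicate 3 and shRUNX1 replicate 2 each sat within the range of the other arm.

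**Figure D1:**
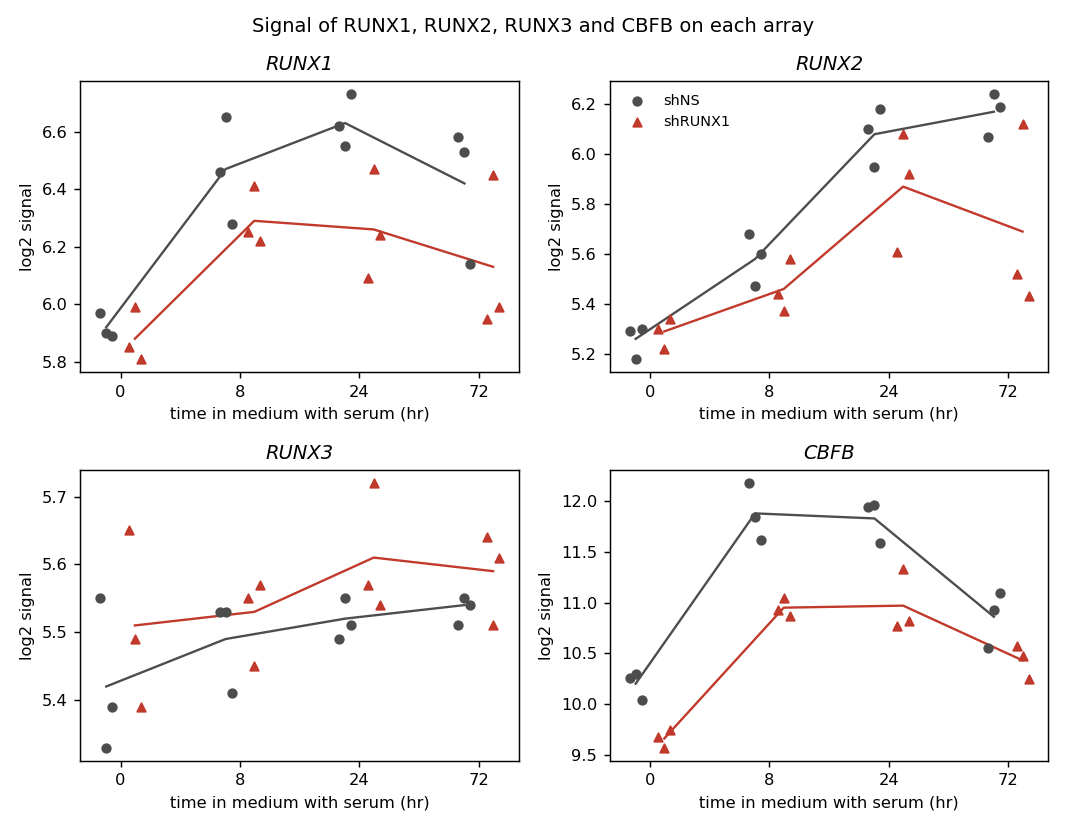
Log2 signal (y axis, a separate scale for each gene) against time in medium with serum in hr (x axis, times evenly spaced) for RUNX1, RUNX2, RUNX3 and CBFB. Each point is 1 array, grey circles for shNS and red triangles for shRUNX1, and lines join the means of 3 arrays. CBFB lay lower in all shRUNX1 arrays at 0, 8 and 24 hr, and RUNX1 at 24 hr.

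At no single time did the RUNX1 difference pass the test, which was an adjusted p under 0.05 from limma over all 67528 clusters together with a fold change over 1.5. At 8, 24 and 72 hr it was -0.17, -0.37 and -0.28 (SE 0.14 each, adjusted p = 0.768, 0.264 and 0.348). With 3 arrays against 3 a two-sided exact permutation test cannot go below p = 0.1, which it gave for RUNX1 at 24 hr, and 6.85% of all clusters likewise lay lower without overlap at that time. At 24 hr the 95% confidence interval of the RUNX1 signal in shRUNX1 cells relative to shNS cells ran from 0.636 to 0.946 times. With 1 array left out in turn the difference at 72 hr ran from -0.45, without shRUNX1 replicate 2 (adjusted p = 0.0768), to -0.19, with adjusted p up to 0.689. Averaged over the 4 times, a comparison added after the values had been seen, RUNX1 was lower by a log2 difference of -0.21 (SE 0.07, adjusted p = 0.0442, 0.862 times). Its adjusted p met the threshold and its fold change did not, and without shRUNX1 replicate 1 at 24 hr the adjusted p was 0.08. How much of this signal comes from LOC100506403 or from background, and where the probes lie relative to the shRNA target, was not tested. The study reports knockdown of RUNX1 protein by western blot, and no RUNX1 RNA foci in undifferentiated hESCs. On the arrays the RUNX1 group means at 0 hr were 5.92 in shNS and 5.88 in shRUNX1 cells. The ratios above were taken without subtracting a background level, so they do not measure how far RUNX1 RNA was silenced.

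The mean of CBFB was lower in shRUNX1 than in shNS cells at all 4 times, by more than that of any other member at 0, 8 and 24 hr, while at 72 hr the difference of RUNX2 was -0.48 and that of CBFB -0.43. In shNS cells its log2 signals were 10.26, 10.30 and 10.04 at 0 hr, and in shRUNX1 cells 9.67, 9.57 and 9.74. At 8 hr they were 12.18, 11.84 and 11.62 against 10.93, 11.05 and 10.87. At 24 hr they were 11.94, 11.96 and 11.59 against 10.77, 11.33 and 10.82. At each of these 3 times the highest shRUNX1 array lay below the lowest shNS array. At 72 hr they were 10.55, 10.93 and 11.09 against 10.57, 10.47 and 10.25, and the arms overlapped by a single array.

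In the order of the 4 times the CBFB differences were -0.54, -0.93, -0.86 and -0.43 (SE 0.17 each), with adjusted p of 0.153, 0.151, 0.0747 and 0.244 from limma. The 24 hr signal in shRUNX1 cells was 0.552 times that in shNS cells (95% confidence interval 0.432 to 0.707). No member was called between the arms at a single time in this limma fit, against 0.193%, 0.00148%, 0.0133% and 0.27% of all clusters in the same order of times. At an unadjusted p under 0.05 with a fold change over 1.5, CBFB passed at 8 and 24 hr, as did 1.17% and 2.73% of all clusters. Groups without overlap and a lower value in shRUNX1 cells were found for CBFB at 0, 8 and 24 hr (two-sided exact permutation p = 0.1 each), and for 6.72%, 4.84% and 6.85% of all clusters. The 24 hr call depended on how many clusters were tested, and with the clusters of exactly 1 gene symbol alone the adjusted p was 0.0459. It was 0.0301 without shRUNX1 replicate 2, 0.0272 without shNS replicate 3 and 0.251 without shRUNX1 replicate 1.

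Averaged over the 4 times, CBFB was lower in shRUNX1 cells by a log2 difference of -0.69 (SE 0.09, adjusted p = 0.000174, limma), a signal of 0.621 times that in shNS cells (95% confidence interval 0.549 to 0.703). This comparison was added after the values had been seen. Like every mean over the 4 times given here, it took all 24 arrays as independent. The labels do not say whether arrays of 1 replicate number share a culture across times, and if they do, its SE and p may be too small. The comparison called CBFB, and it called lower 0.663% of all clusters. With each of the 24 arrays left out in turn the difference stayed between -0.73 and -0.65, with adjusted p between 7.78e-05 and 0.000575. Over 10 alternatives that kept all arrays, replicate blocks among them, it lay between -0.75 and -0.60. There the adjusted p ran from 4.7e-05 to 0.0346, and CBFB was called in each. The change of the CBFB difference from 0 hr to 8, 24 and 72 hr did not pass (-0.39, -0.32 and 0.11, SE 0.24 each, adjusted p = 0.984, 0.91 and 0.934). Such changes were called in 0.00296%, 0% and 0% of all clusters. Since each arm is 1 shRNA clone, an effect of RUNX1 silencing and an effect of that clone or of the selected culture cannot be told apart.

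**Figure D2:**
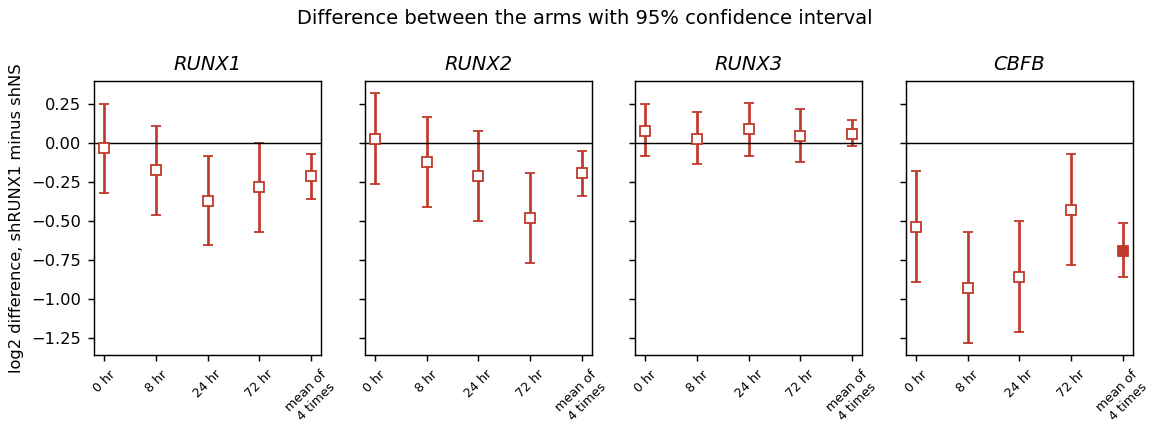
Log2 difference, shRUNX1 minus shNS (y axis), at each time and over the mean of the 4 times (x axis) for each gene. Squares are estimates from 3 arrays against 3 (12 against 12 for the mean), bars are 95% confidence intervals from limma, and the filled square, CBFB over the mean at -0.69, marks the only call.

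RUNX2, the regulator of bone formation, showed no difference between the arms at 0 hr and its largest at 72 hr. At 0 hr the shNS arrays read 5.29, 5.18 and 5.30 and the shRUNX1 arrays 5.30, 5.22 and 5.34. At 8 hr they read 5.68, 5.47 and 5.60 against 5.44, 5.37 and 5.58, and at 24 hr 6.10, 5.95 and 6.18 against 5.61, 6.08 and 5.92. At 72 hr they read 6.07, 6.24 and 6.19 against 5.52, 6.12 and 5.43. At 72 hr shRUNX1 replicates 1 and 3 lay below all shNS arrays, and replicate 2, the array that deviated in 1246 clusters, lay among them. The difference at 72 hr was -0.48 (SE 0.14, adjusted p = 0.113), and without that array it was -0.69 (adjusted p = 0.00232), which passed the test. That was the only 1 of 6 omissions to pass, and over them the difference ran to -0.35 and the adjusted p to 0.374. The change of the difference from 0 to 72 hr was -0.51 (SE 0.20, adjusted p = 0.402), and -0.72 without the same array (adjusted p = 0.0332). That was the only 1 of 12 omissions to pass, with adjusted p up to 0.658. At 0, 8 and 24 hr the RUNX2 differences were 0.03, -0.12 and -0.21 (SE 0.14 each), and none passed. The value of 0.03 turned to -0.04 after median centring or quantile normalization. Over the mean of the 4 times RUNX2 differed by -0.19 (SE 0.07, adjusted p = 0.0697). It differed by -0.25 without shRUNX1 replicate 2 at 72 hr (adjusted p = 0.0056) and by -0.16 without shRUNX1 replicate 1 at 24 hr (adjusted p = 0.126), all under the fold threshold.

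RUNX3 was dim and nearly flat. Its 24 log2 signals ran from 5.33 to 5.72, around the median of all values. In shNS cells the lowest and highest arrays were 5.33 and 5.55 at 0 hr, 5.41 and 5.53 at 8 hr, 5.49 and 5.55 at 24 hr, and 5.51 and 5.55 at 72 hr. In shRUNX1 cells they were 5.39 and 5.65, 5.45 and 5.57, 5.54 and 5.72, and 5.51 and 5.64. The arms overlapped at all 4 times. The differences were 0.08, 0.03, 0.09 and 0.05 at 0, 8, 24 and 72 hr (SE 0.08 each), and their 95% confidence intervals lay within -0.13 and 0.26. Those at 8 and 72 hr turned to -0.02 and -0.01 after median centring. A signal this near the middle of all clusters says little on whether the gene was transcribed.

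During differentiation of shNS cells CBFB, RUNX1 and RUNX2 were called higher at 1 or more times and RUNX3 at none, and whether their courses differ from each other was not tested. CBFB went from 10.20 ± 0.14 (SD, n = 3) at 0 hr to 11.88 ± 0.28 at 8 hr, a log2 change of 1.68 (SE 0.17, adjusted p = 3.28e-06, 3.2-fold). It stayed there at 24 hr (11.83 ± 0.20, change from 0 hr 1.63, adjusted p = 1.99e-06) and then fell by 0.97 to 10.86 ± 0.28 at 72 hr (adjusted p = 0.00783 for the step from 24 hr). With the methods' test of the 2 groups alone and an adjusted p, the changes to 8 and 72 hr and the fall lost their calls (adjusted p = 0.0661, 0.118 and 0.44), and the fall lost it also when only the 6 arrays compared were fitted (adjusted p = 0.177). The fall further lost its call without shNS replicate 1 or 2 at 24 hr or shNS replicate 1 at 72 hr (adjusted p = 0.0551, 0.0508 and 0.0642). At 72 hr CBFB was still 1.58-fold above 0 hr (adjusted p = 0.00859), which no longer passed without shNS replicate 3 at 0 hr or shNS replicate 3 at 72 hr (adjusted p = 0.0491 with a change of 0.58, and 0.0515).

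RUNX1 in shNS cells started from a mean of 5.92 ± 0.04 (SD, n = 3) and reached 6.47 ± 0.18, 6.63 ± 0.09 and 6.42 ± 0.24 at the 3 later times. Only the change to 24 hr passed both thresholds, at 0.71 (SE 0.14, adjusted p = 0.000797, 1.64-fold). The changes to 8 and 72 hr were 0.55 and 0.50 (adjusted p = 0.0147 and 0.0129), which were 1.46-fold and 1.41-fold and so under the fold threshold. Without shNS replicate 3 at 8 hr or at 72 hr each was 0.64 and passed (adjusted p = 0.0107 and 0.00366). All shNS arrays at 8, 24 and 72 hr lay above all shNS arrays at 0 hr, as did those of 11.4%, 15.3% and 14.1% of all clusters.

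RUNX2 in shNS cells started from a mean of 5.26 ± 0.06 (SD, n = 3), stood at 5.58 ± 0.10 by 8 hr, and rose to 6.08 ± 0.11 and 6.17 ± 0.08 at 24 and 72 hr. The change to 8 hr was 0.33 (SE 0.14, adjusted p = 0.179), to 24 hr 0.82 (adjusted p = 0.000257, 1.77-fold) and to 72 hr 0.91 (adjusted p = 0.00011, 1.88-fold). RUNX3 changed by 0.07, 0.09 and 0.11 (SE 0.08 each, adjusted p = 0.753, 0.5 and 0.411). Higher calls numbered 1 of the 4 members at 8 hr, 3 at 24 hr and 2 at 72 hr, where 2.59%, 4.48% and 4.06% of all clusters were called higher. The step from 24 to 72 hr called CBFB lower, as it did 0.154% of all clusters.

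In shRUNX1 cells CBFB again rose, by 1.29 at 8 hr (SE 0.17, adjusted p = 6.89e-05), 1.31 at 24 hr (adjusted p = 4.73e-05) and 0.77 at 72 hr (adjusted p = 0.00734), the changes to 24 and 72 hr losing their calls with the methods' test (adjusted p = 0.0815 and 0.122). CBFB was the only member called higher there at the 3 times, where 2.13%, 2.79% and 2.05% of all clusters were called higher. RUNX1 changed by 0.41, 0.38 and 0.25 (SE 0.14 each, adjusted p = 0.0833, 0.0763 and 0.296). RUNX2 changed by 0.18, 0.58 and 0.40 (adjusted p = 0.582, 0.00822 and 0.0789), and the 24 hr change lay at the edge of the fold threshold. That RUNX1 and RUNX2 passed in shNS cells and not in shRUNX1 cells does not show that their courses differed. The changes of the difference between the arms from 0 hr to 8, 24 and 72 hr were -0.14, -0.33 and -0.25 for RUNX1 (SE 0.19 each, adjusted p = 0.992, 0.876 and 0.75), and none passed.

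Ordered by group mean, CBFB was highest in shNS cells at 8 and 24 hr and lowest in shRUNX1 cells at 0 hr, with neighbouring groups in the order apart without overlap only between shNS and shRUNX1 at 24 hr and between shNS and shRUNX1 at 0 hr. RUNX1 was highest in shNS cells at 24 hr and lowest in shRUNX1 cells at 0 hr, and every pair of neighbouring groups overlapped. RUNX2 was highest in shNS cells at 72 hr and lowest in shNS cells at 0 hr, and only shRUNX1 at 8 hr and shRUNX1 at 0 hr were neighbours without overlap. For RUNX3 all neighbours overlapped, and its range of group means was 0.18 against a spread within groups of 0.08.

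For each member the 5 genes whose signal followed it most closely over the 24 arrays are given as a description, since the arrays share their time courses. RUNX1 was followed by FOSL1 (Pearson r = 0.963), a component of AP-1, by the non-coding RNA LINC00941 (0.957), by the LIM-domain cofactor FHL2 (0.954), by SMAD3 (0.954), a transducer of TGF-beta signals that forms complexes with RUNX proteins, and by RCAN1 (0.951), an inhibitor of calcineurin. FOSL1 went from 6.09 at 0 hr to 7.71 at 24 hr in shNS cells and from 6.17 to 7.13 in shRUNX1 cells. RUNX2 was followed by LOX (0.976), which crosslinks collagen and elastin, by PRSS23 (0.967), PSTPIP2 (0.965) and NT5E (0.963), the ecto-enzyme known as CD73, and by MYOF (0.962). LOX stood at 5.66 at 0 hr and 11.41 at 72 hr in shNS cells, and at 5.75 and 8.66 in shRUNX1 cells. CBFB was followed by PLCE1 (0.943), STK38L (0.934), the EGF receptor ligand HBEGF (0.934), PM20D2 (0.933) and SMURF1 (0.93), a ubiquitin ligase that marks RUNX proteins for degradation. HBEGF stood at 6.71, 10.07, 10.05 and 8.3 at 0, 8, 24 and 72 hr in shNS cells, and at 6.58, 9.13, 8.96 and 7.46 in shRUNX1 cells. RUNX3 had no close companion among the 7709 candidates, the highest r being 0.724 with LINC00670, followed by the microRNA clusters MIR4483, MIR299, MIR3201 and MIR3190 at 0.697 to 0.638. Between members, r over the 24 arrays was 0.80 for RUNX1 and CBFB and 0.72 for RUNX1 and RUNX2. After the group means were taken out it was 0.06 for RUNX1 and CBFB and 0.52 for RUNX1 and RUNX2.

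Of the transcription factors that bind DNA beside RUNX proteins, 8 of 24 measured genes rose from 0 to 24 hr in shNS cells and 1 fell, with a median change of 0.16 against -0.005 over all clusters and calls in 4.48% (higher) and 8.11% (lower) of them. ETS1, which binds DNA together with RUNX1, rose by 3.59 (SE 0.45, adjusted p = 1.25e-05), and its relatives ELF1, FLI1 and ETS2 by 1.51, 1.38 and 1.34. ERG and SPI1, of the same ETS family, stood at 5.06 and 4.63 at 0 hr and at 5.10 and 4.61 at 24 hr. The AP-1 genes JUN and JUNB rose by 1.82 and 1.37, while FOS stood at 5.52 and 5.67, and SMAD3 and GATA3 rose by 1.53 and 2.05. Of these, JUNB lost its call with the methods' test (adjusted p = 0.0581). MYB, a regulator of blood progenitors, fell by 0.89 (adjusted p = 0.000233). In shRUNX1 cells 7 rose and 1 fell, where 2.79% of all clusters were called higher and 5.06% lower, and GATA3 changed by 0.95 without passing. With the methods' test and an adjusted p all 8 of these calls in shRUNX1 cells were lost, the lowest being that of ELF1 (adjusted p = 0.118). Between the arms 1 of the 24 was called, ELF1 at 72 hr, where 0.27% of all clusters were called. Its difference was -0.73 (SE 0.14, adjusted p = 0.0408, limma). Without shRUNX1 replicate 2 at 72 hr or shNS replicate 3 at 72 hr ELF1 kept its call, and it lost it without any of the other 4 arrays compared, the highest adjusted p being 0.219, and with the methods' test the adjusted p was 0.46.

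Among coactivators and corepressors of RUNX proteins 2 of 24 measured genes rose and 3 fell from 0 to 24 hr in shNS cells (median change -0.11), where 4.48% of all clusters were called higher and 8.11% lower, so that neither share lay far from that of all clusters. WWTR1, the coactivator known as TAZ, rose by 0.95 (SE 0.15, adjusted p = 0.000139), and TLE5 rose by 0.71. TLE4, a corepressor of the Groucho family that binds the C-terminal motif of RUNX proteins, fell by 0.99, the acetyltransferase KAT6B by 0.77, and RUNX1T1, the corepressor fused to RUNX1 in leukaemia, by 0.60. With single arrays left out, TLE4 lost its call without shNS replicate 2 at 0 hr or replicate 3 at 24 hr, and TLE5 without shNS replicate 2 at 0 hr. RUNX1T1 lost it without any of 4 of the 6 arrays, and also with the letter of the sample descriptions as a fixed block (adjusted p = 0.0548). With the methods' test TLE5, TLE4 and RUNX1T1 lost their calls (adjusted p = 0.0644, 0.188 and 0.147). None of the 24 was called between the arms with limma at any time, beside at most 0.27% of all clusters. The smallest adjusted p were those of TLE5 (0.49, adjusted p = 0.129) and KAT6A (-0.43, adjusted p = 0.142) at 0 hr.

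Enzymes that modify or degrade RUNX proteins included 5 risers and 2 fallers among 24 measured genes from 0 to 24 hr in shNS cells, beside 4.48% and 8.11% of all clusters, and the fallers were no more frequent than that. The ubiquitin ligases SMURF2 and SMURF1, which mark RUNX proteins for degradation, rose by 2.49 (SE 0.35, adjusted p = 4.65e-05) and 0.87 (SE 0.12, adjusted p = 2.95e-05). The kinases PIM1 and CDK6, which act on RUNX1, rose by 1.84 and 1.59, and the phosphatase PTPN11 by 0.82. WWP2 and SKP2, further ubiquitin ligase subunits, fell by 0.68 and 0.60, and SKP2 lost its call without shNS replicate 1 or 2 at 0 hr or shNS replicate 3 at 24 hr. With the methods' test PIM1, CDK6 and SKP2 lost their calls (adjusted p = 0.081, 0.0572 and 0.12). In shRUNX1 cells 8 of the 24 rose and 0 fell, where 2.79% of all clusters were called higher and 5.06% lower. CDK2, HIPK2 and MDM2 were among them (0.61, 0.70 and 0.95) and had not been called in shNS cells. All 8 lost their calls with the methods' test and an adjusted p. None of the 24 was called between the arms at a single time with limma, beside at most 0.27% of all clusters. The closest was MDM2 at 72 hr (-1.09, adjusted p = 0.0715). Over the mean of the 4 times SMURF2 was lower in shRUNX1 cells by a difference of -0.71 (SE 0.18, adjusted p = 0.0139), and it kept the call without each of the 24 arrays in turn. It was 1 of 24 called lower, beside 0.663% of all clusters.

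Of genes reported as targets of RUNX proteins, 9 of 33 measured rose and 1 fell from 0 to 24 hr in shNS cells, beside 4.48% and 8.11% of all clusters. The list includes TGFB2, which the study itself reports as a target of RUNX1 in differentiating hESCs. SPP1, which encodes the bone matrix protein osteopontin, rose by 8.06 (SE 0.49, adjusted p = 4.75e-09), and COL1A1 by 2.57. TGFB2, a ligand of the TGF-beta family, rose by 4.81 (SE 0.56, adjusted p = 5.52e-06), the myosin light chain gene MYL9 by 2.91, SNAI2, a repressor of epithelial genes, by 1.51, and the regulator of G protein signaling RGS2 by 1.48. CDKN2A, ITGA4 and VEGFA rose by 1.05, 0.95 and 0.62, the last losing its call without shNS replicate 2 at 0 hr or shNS replicate 3 at 24 hr. With the methods' test MYL9, CDKN2A and VEGFA lost their calls (adjusted p = 0.0574, 0.0931 and 0.138). KIT, the receptor of stem cell factor, fell by 2.71 (SE 0.44, adjusted p = 0.000155). SPI1, IBSP and SP7, blood and bone targets on the list, stayed near or under the median of all values at all times.

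At 72 hr, where 0.27% of all clusters were called between the arms, RGS2 was called, the only one of the 33 reported targets at a single time. It stood at 8.50 in shNS and 7.62 in shRUNX1 cells, a difference of -0.88 (SE 0.17, adjusted p = 0.0386, limma). It kept the call without shNS replicate 3 or shRUNX1 replicate 2 at 72 hr and lost it without each of the other 4 arrays compared (highest adjusted p = 0.2), and with the methods' test the adjusted p was 0.475. The difference of TGFB2 was -2.52 at 72 hr (adjusted p = 0.054). Over the mean of the 4 times TGFB2 was lower by -1.58 (SE 0.28, adjusted p = 0.00207), MYL9 by -0.67 (adjusted p = 0.0284) and SPP1 by -0.76 (adjusted p = 0.0468), 3 of 33 targets called, all lower, where 0.663% of all clusters were called lower. TGFB2 kept this call without each of the 24 arrays in turn, MYL9 without 17 of them and SPP1 without 5. The sample descriptions carry letters whose meaning is not given, A to C for shNS and C to E for shRUNX1 arrays, so that with the letter as a fixed block the difference between the arms rests on the arrays of letter C. In that fit the difference of MYL9 was -0.18 (adjusted p = 0.67), that of TGFB2 -1.30 (adjusted p = 0.096) and that of SPP1 -1.04 (adjusted p = 0.109).

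**Figure D3:**
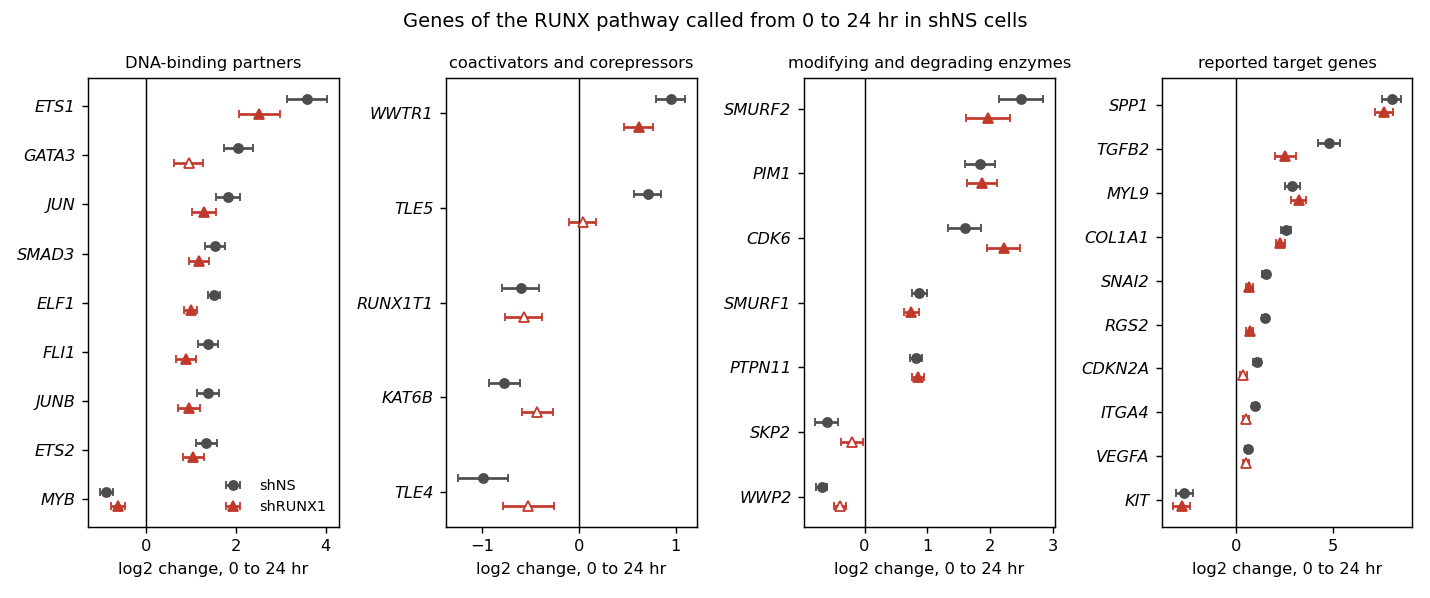
Log2 change from 0 to 24 hr (x axis, a separate scale for each panel) of the pathway genes called in shNS cells, by role. Genes called only in shRUNX1 cells are not shown. Grey circles are shNS and red triangles shRUNX1 cells, bars are SE from limma, and filled symbols passed the test in that arm. ETS1 rose by 3.59, SMURF2 by 2.49 and SPP1 by 8.06 in shNS cells.

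Each RUNX gene lies beside a CLIC gene and an RCAN gene, paralogous neighbours that were duplicated together, so the RNAs around the members were followed as well. CLIC6, beside RUNX1, rose from 5.93 at 0 hr to 7.78 at 24 hr in shNS cells (change 1.85, SE 0.15, adjusted p = 1.29e-07), and RCAN1, on the same side of RUNX1, by 0.69 (adjusted p = 0.00121). On the side of RUNX2, RCAN2 rose by 1.37 (SE 0.21, adjusted p = 8.38e-05), while CLIC5, the closer neighbour, stayed between 4.80 and 4.97 in the 8 group means. CLIC4, beside RUNX3, rose by 1.07 (adjusted p = 8.5e-06), and RCAN3 rose by 0.76 at 72 hr (adjusted p = 4.56e-05), although RUNX3 itself changed by 0.11 at most. SETD4, beyond RUNX1 on the other side, fell by 0.74 (adjusted p = 0.00345). The neighbours of CBFB, among them PHAF1, B3GNT9, TRADD and NOL3, were not called from 0 to 24 hr in shNS cells, so that the rise of CBFB by 1.63 had no counterpart among those measured. In all, 4 of 15 measured neighbours rose and 1 fell at 24 hr, beside 4.48% and 8.11% of all clusters. None of the 15 was called between the arms at a single time with limma, beside at most 0.27% of all clusters. The smallest adjusted p were those of CDC5L (-0.50, adjusted p = 0.114) at 0 hr and RCAN2 (-0.67, adjusted p = 0.13) at 72 hr.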

How the data were processed

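The log2 values deposited by the authors are signals of whole transcript clusters. Per the submitters' notes they come from RMA in Expression Console, and the methods add leveling by GC content, a signal-space transformation and version 1.0.0.234 of the Transcriptome Analysis Console. They were used unchanged, without the 2995 control rows. Arrays have no read depth, and their number limits the precision. All comparisons came from limma 3.58.1 under R 4.3.3 (lmFit, eBayes with trend, 8 group means, 16 residual degrees of freedom), two-sided, with Benjamini-Hochberg adjustment over all 67528 clusters. Of these, only the comparison of the arms at 24 hr was tried on simulated data. A call is an adjusted p under 0.05 with a fold change over 1.5. Named are the members, list genes called in a comparison (if none, those with the smallest p) and the 5 genes closest to each member among clusters of 1 symbol that varied over 1.5-fold. List genes are clusters of exactly 1 symbol. Members and lists were chosen with earlier results of these data known. Alternatives were other cluster sets, normalizations, spread models, replicate blocks, the methods' test (ANOVA of the 2 groups alone) and single arrays left out. The study names an ANOVA p and an FDR p from its software, whose settings may differ from those of this ANOVA. It reports more genes changed between the arms at 8, 24 and 72 hr than clusters were called here. Same-numbered arrays of the 2 arms correlated in their deviations at r of -0.061 to 0.264, over 0.1 in 5 of 12 pairs, which does not settle whether numbers pair the arms. Within shRUNX1 cells 6 of 15 pairs were over 0.1, with 0.337, 0.329 and 0.098 from 24 to 72 hr. Within shNS cells 10 of 15 pairs were over 0.1, among them all from 0 to 8 hr (0.224 to 0.397) and from 0 to 24 hr (0.128 to 0.282). From 0 to 72 hr replicates 1 and 2 gave -0.086 and -0.077, and from 8 to 24 hr replicate 2 gave -0.023. Arrays of unlike number were not correlated, so whether numbers, the same there as the letters, pair these arrays was not tested. Uninfected cells and some list genes were not analysed here. Figures were drawn in Python with matplotlib.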

Additional observations from a re-analysis of the deposited data

How the results depend on the processing

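Of 882 pairs of a member's result and an alternative that kept all arrays, 852 kept direction and side of the threshold, as did 538 of 576 with 1 array left out. The cause was not tested for the others. Each member has 1 cluster, so no mean over clusters could be tried, and RUNX1 has no value among clusters of exactly 1 symbol. CBFB at 24 hr between the arms (-0.86, not called) was called with clusters of exactly 1 symbol (adjusted p = 0.0459), of at least 1 symbol (0.0489), with dim clusters left out (0.0491), with array weights (-0.94), with a replicate block by title number (0.0443) and with the methods' ANOVA at an unadjusted p (0.0161), which also called it at 8 hr (-0.93). The replicate block by letter turned the RUNX2 difference at 0 hr to -0.13, and no block changed another call of a member. For the changes in shNS cells the letter block took the clusters called from 3777 to 4229 (0 to 8 hr) and from 8498 to 8817 (0 to 24 hr), and of the list genes called from 0 to 24 hr RUNX1T1 alone lost its call.

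With the methods' ANOVA and an adjusted p, CBFB lost its calls for the changes in shNS cells from 0 to 8 hr (1.68), from 0 to 72 hr (0.66) and from 24 to 72 hr (-0.97, lost also with only the arrays compared), and in shRUNX1 cells from 0 to 24 hr (1.31) and to 72 hr (0.77). It kept 26 of 36 list genes called from 0 to 24 hr in shNS cells and 1 of 28 in shRUNX1 cells (SPP1), and 0 of 2 between the arms at 72 hr (ELF1 and RGS2). Calls were gained for RUNX1 in shNS cells from 0 to 72 hr with quantile normalization (0.61) and from 0 to 8 hr with array weights (0.60), and for RUNX2 in shRUNX1 cells from 0 to 24 hr with quantile normalization (0.66), median centring (0.64) and array weights (0.61).

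Signs turned for values near 0. With quantile normalization and median centring these were RUNX1 in shRUNX1 cells from 8 to 24 hr (0.06 and 0.00), RUNX2 between the arms at 0 hr (-0.04 and -0.04), and RUNX3 at 8 hr (-0.02 and -0.02) and 72 hr (-0.01 and -0.01). With array weights they were CBFB in shNS cells from 8 to 24 hr (0.04), RUNX3 in shRUNX1 cells from 24 to 72 hr (0.01) and the change of the RUNX3 difference from 0 to 24 hr (-0.03).

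With each array left out in turn, the CBFB difference at 24 hr ranged from -1.03 to -0.75, its changes in shNS cells from 0.54 to 0.81 (0 to 72 hr), from -1.09 to -0.82 (24 to 72 hr) and from -0.18 to 0.10 (8 to 24 hr), that in shRUNX1 cells from -0.16 to 0.12 (8 to 24 hr) and the change of its difference from -0.04 to 0.23 (0 to 72 hr). RUNX1 ranged from 0.46 to 0.64 (shNS, 0 to 8 hr), from 0.42 to 0.64 (shNS, 0 to 72 hr), from -0.09 to 0.00 (between the arms at 0 hr) and from -0.13 to 0.06 (shRUNX1, 8 to 24 hr). RUNX2 ranged from 0.48 to 0.71 (shRUNX1, 0 to 24 hr), from -0.69 to -0.35 (between the arms at 72 hr), from -0.01 to 0.06 (at 0 hr) and from -0.72 to -0.38 (change of the difference to 72 hr). RUNX3 ranged from 0.00 to 0.07 (between the arms at 8 hr), from -0.01 to 0.05 (shNS, 8 to 24 hr), from -0.04 to 0.09 (shRUNX1, 0 to 8 hr), from -0.06 to 0.03 (shRUNX1, 24 to 72 hr), and in the change of its difference from -0.12 to 0.02, from -0.06 to 0.08 and from -0.10 to 0.04 at 8, 24 and 72 hr. The count of all clusters called between the arms at 24 hr, 9 in the main analysis, ranged from 0 to 919 over 19 alternatives, with 122 for the block by title number and 269 for that by letter. SPP1, MYL9 and TGFB2 over the mean of the 4 times lost their calls with the letter as a fixed block (adjusted p = 0.109, 0.67 and 0.096) and kept them with it as a random block.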
